A study of Nicotiana tabacum with 21 samples.

Results

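Stationary cells of the auxin-autonomous tobacco line VBI-2 were compared with stationary cells of the auxin-dependent line VBI-0. The libraries were chosen by their labels, 3 per line, and made up 6 of the 21 libraries of a study on how tobacco suspension cultures come to divide without supplied auxin. Both lines were suspension cultures of *Nicotiana tabacum* cv. Virginia Bright Italia, kept in the dark in modified Heller medium and 10 d old when taken as stationary. VBI-0 was supplied with the auxins 2,4-D and NAA, and VBI-2 received neither. Each condition is represented by 1 line, so an effect of the line cannot be told apart from an effect of the auxin in the medium. No other treatment was applied. The labels number the 3 libraries of a line as biological replicates, but do not say that they came from separate cultures. The p-values therefore measure only the spread between these libraries. A suspension culture has no defining markers in the lists used here, so the label of the cell type was not checked. In such bulk RNA, fewer cells of a kind and less RNA per cell cannot be told apart.

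Auxin reaches a nuclear receptor pair made of a TIR1/AFB F-box protein and an AUX/IAA repressor, and the repressor is then degraded and frees the ARF transcription factors. Cells set the level of the natural auxin IAA by synthesis through TAA aminotransferases and YUCCA monooxygenases, by conjugation, oxidation, methylation and glycosylation, by hydrolysis of conjugates, and by transport through PIN, ABCB and LAX proteins. AUX/IAA, GH3 and SAUR genes are the classical families of early auxin response in plants.

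Each library held, for 69491 transcripts, estimated reads and a level in TPM, which is scaled by transcript length and sums to the same total in each library. Estimated reads per library were 12001963 to 16731362 in VBI-0 and 10545447 to 17950005 in VBI-2. Of 48440 transcripts tested, 8565 (17.7%) were called higher and 10785 (22.3%) were called lower in VBI-2. A call needs an adjusted p of at most 0.05 in edgeR's quasi-likelihood test and a log2 fold change of at least 1 in either direction. The median log2 fold change over all transcripts tested was -0.03. Transcripts called lower took 30.3% to 30.8% of the TPM of the VBI-0 libraries and 6.74% to 7.10% of that of the VBI-2 libraries, and transcripts called higher took 7.34% to 7.64% and 28.0% to 28.4%. Changes were often large. Among the calls, 1058 higher and 1943 lower had a log2 fold change of 6 or more in size. Loss of all reads was more frequent than gain from none: 1331 transcripts called lower had at least 1 TPM in every VBI-0 library and 0 reads in VBI-2, and 682 had the reverse pattern.

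Names ending in S or T give the closer homolog in the parental species *N. sylvestris* or *N. tomentosiformis*. TPM values are given in the order of replicates 1, 2 and 3, and log2 fold changes as VBI-2 minus VBI-0 with their SE. A fold against a line with 0 reads is a lower bound, set against a floor of 3 reads over the 3 libraries of that line. A ratio on 1 to 3 reads carries a 95% interval. Bounds and intervals cover counting error only. Of 48440 transcripts tested, 31590 had TPM values that did not overlap between the lines. Transcripts named for the highest or lowest log2 fold change of a list were picked among called transcripts without overlap. Their lack of overlap is therefore no further evidence.

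**Figure D1:**
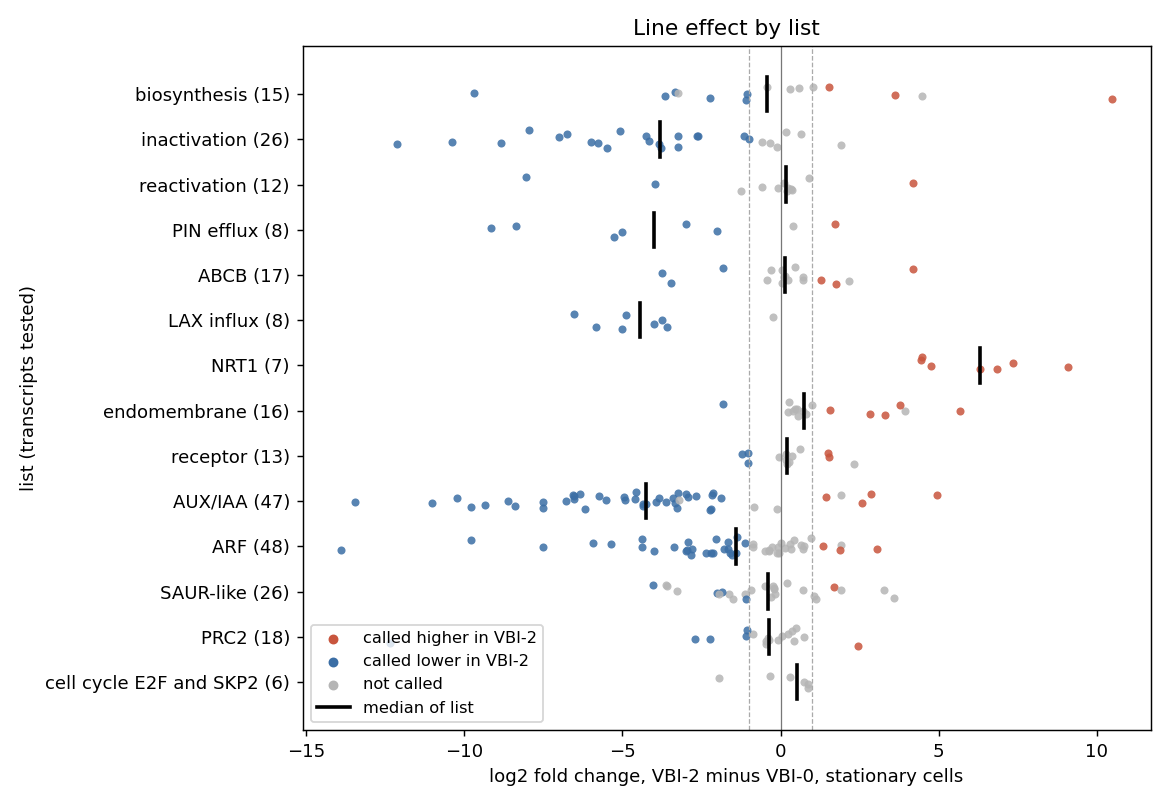
Log2 fold change (VBI-2 minus VBI-0, stationary cells, x axis) of every transcript tested in 14 lists (y axis, number tested in brackets). Points are transcripts coloured by call, black bars are list medians and dashed lines mark a log2 fold change of 1 in either direction; AUX/IAA, LAX influx, PIN efflux and inactivation lie to the left, with medians of -4.25, -4.44, -4.01 and -3.80, while NRT1 lies to the right, where 5 of its 7 members passed the filter on low values through VBI-2 alone.

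In auxin biosynthesis, single transcripts changed in opposite directions. Of 27 listed transcripts 15 were tested, of which 3 (20%) were called higher and 6 (40%) lower, beside 17.7% and 22.3% of all transcripts, for a median log2 change of -0.42 (0 with transcripts that had no reads in a line set at their bound). Of the 15, 3 passed the filter on low values through VBI-2 alone, which favours a call as higher. The count called higher was 2 under DESeq2, no filter and filterByExpr. It was 3 under median-of-ratios scaling and with the 6 stationary libraries alone. A YUCCA8 transcript (Nitab4.5_0007788g0010.1), whose product converts indole-3-pyruvate to IAA, had 0 reads in each VBI-0 library and 13.9, 13.9 and 10.9 TPM in VBI-2. It was at least 167-fold higher in VBI-2 (adjusted p = 1.71e-11). The aminotransferase transcript NtTAA2S (Nitab4.5_0001284g0120.1), which makes indole-3-pyruvate from tryptophan, showed the reverse, with 3.77, 5.28 and 4.30 TPM in VBI-0 and 0 reads in VBI-2. It was at least 98.5-fold lower (adjusted p = 1.77e-09). In both cases all libraries of a line lay apart from all libraries of the other, but both had been picked among transcripts without overlap.

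The amidase AMI1 releases IAA from indole-3-acetamide, and its 2 copies were called in opposite directions. NtAMI1S had 0.29, 0 and 0.58 TPM in VBI-0 and 3.63, 4.44 and 3.44 TPM in VBI-2 (log2 fold change 3.62 ± 0.53, adjusted p = 4.75e-06). NtAMI1T, the most abundant biosynthetic transcript, had 45.9, 47.9 and 52.2 TPM in VBI-0 and 21.3, 24.4 and 25.5 TPM in VBI-2 (log2 fold change -1.08 ± 0.09, adjusted p = 3.70e-09). Neither copy overlapped between the lines, and because the T copy was far more abundant, the summed level of both copies was lower in VBI-2, at 27.6 TPM against 49.0 TPM in VBI-0.

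The homologs NtTAA1 and NtYUCCA3 stayed at low levels in both lines and none of their transcripts was called. The NtTAA1T transcript Nitab4.5_0002255g0070.1 had 1.38, 1.76 and 1.83 TPM in VBI-0 and 2.41, 2.27 and 2.57 TPM in VBI-2, with a log2 fold change of 0.58 ± 0.28 (adjusted p = 0.0794). The second NtTAA1T transcript, Nitab4.5_0000031g0380.1, had 0.44, 1.89 and 2.18 TPM against 1.32, 1.06 and 0.96 TPM, and the lines overlapped (log2 fold change -0.42 ± 0.68, adjusted p = 0.616). NtYUCCA3T had 0.47, 0.23 and 0.16 TPM against 0.51, 0.54 and 0.69 TPM (log2 fold change 1.02 ± 0.58, adjusted p = 0.134). Without VBI-0 replicate 1 this value was 1.75 and passed the test (adjusted p = 0.0422). NtTAA1S and NtYUCCA3S were not tested, since their mean TPM was not above 0.5 in any group, and had 8 and 6 reads over the 6 libraries.

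Inactivation of auxin was the group of auxin metabolism with the most frequent losses. Of 30 listed transcripts 26 were tested, and 20 (76.9%) were called lower, beside 22.3% of all transcripts; the other 6 did not pass. The median log2 fold change was -3.80, and the summed level of the list fell from 1149, 1111 and 1264 TPM in VBI-0 to 91.1, 72.8 and 91.7 TPM in VBI-2 without overlap. Calls covered 13 of 18 transcripts of amino acid conjugation by GH3 enzymes, all 4 of methylation, both of glycosylation and 1 of 2 of oxidation.

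NtUGT3T, a glucosyltransferase homolog, was the most abundant of these transcripts. It had 525, 488 and 661 TPM in VBI-0 and 13.0, 9.88 and 15.5 TPM in VBI-2 (log2 fold change -5.48 ± 0.21, adjusted p = 1.30e-14). Its S copy, NtUGT3S, varied widely in VBI-0, with 6.92, 2.06 and 17.4 TPM, and had 0 reads in VBI-2, at least 163-fold lower (adjusted p = 2.76e-06). The lowest log2 fold change of the list belonged to NtIAMT1aT, a methyltransferase that makes methyl-IAA, with 20.2, 22.0 and 26.6 TPM in VBI-0 and 0 reads in VBI-2. This was at least 543-fold lower (adjusted p = 5.75e-15).

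Hydrolases that free IAA from its amino acid conjugates did not share this loss as a group. Of 15 listed transcripts 12 were tested, 1 was called higher and 2 lower, shares of 8.33% and 16.7% beside 17.7% and 22.3% of all transcripts, and the median log2 fold change was 0.16. NtIAR3bS, the most abundant, had 58.9, 63.7 and 59.8 TPM in VBI-0 and 76.4, 77.4 and 65.7 TPM in VBI-2, with a log2 fold change of 0.12 ± 0.09 (adjusted p = 0.250). NtILR1aT had 1.09, 1.16 and 1.08 TPM in VBI-0 and 17.5, 22.0 and 22.5 TPM in VBI-2 (log2 fold change 4.18 ± 0.20, adjusted p = 3.49e-13). NtIAR3aS had 8.44, 6.90 and 9.22 TPM in VBI-0 and at most 0.07 TPM in VBI-2, where 2 reads were counted. It was 317-fold lower (95% interval 87.4 to 2620; adjusted p = 1.26e-13). The summed level of the list was 233 to 245 TPM in VBI-0 and 249 to 270 TPM in VBI-2.

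**Figure D2:**
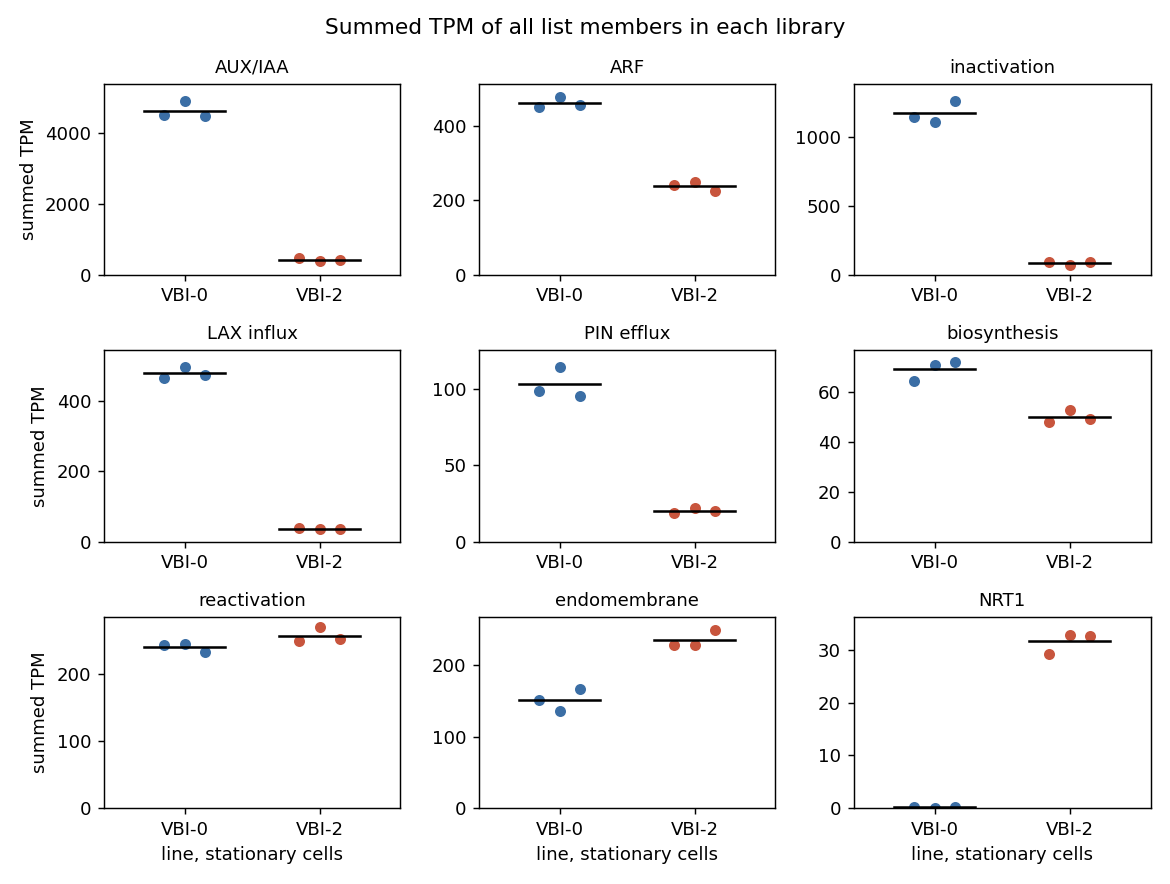
Summed TPM of all members of 9 lists (y axes, each starting at 0) in the 3 VBI-0 and the 3 VBI-2 stationary libraries (x axis). Points are libraries and black bars are means; AUX/IAA, inactivation, LAX influx and PIN efflux drop in every VBI-2 library (AUX/IAA from 4485 to 4914 TPM down to 384 to 486 TPM), whereas reactivation lies at 233 to 270 TPM in both lines.

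Transcripts of both PIN exporters and LAX importers, which move auxin out of and into the cell, were mostly lower in VBI-2. Of 8 PIN transcripts tested out of 10, 6 (75.0%) were called lower and 1 (12.5%) higher, beside 22.3% and 17.7% of all transcripts, for a median log2 change of -4.01. NtPIN3aT, the most abundant, had 44.5, 59.1 and 40.2 TPM in VBI-0 and 0.19, 0.16 and 0.18 TPM in VBI-2 (log2 fold change -8.35 ± 0.20, adjusted p = 1.49e-17). NtPIN11Sb had 8.25, 8.10 and 8.07 TPM in VBI-0 and a single read in VBI-2, 772-fold lower (95% interval 138 to 30500; adjusted p = 1.10e-13). NtPIN2S was the exception. It had 0.67, 0.77 and 0.66 TPM in VBI-0 and 3.14, 2.43 and 2.36 TPM in VBI-2 (log2 fold change 1.72 ± 0.29, adjusted p = 2.54e-05). None of these 3 overlapped between the lines, but NtPIN11Sb and NtPIN2S had been picked among transcripts without overlap.

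Of 8 LAX transcripts tested out of 12, 7 (87.5%) were called lower, beside 22.3% of all transcripts, for a median log2 change of -4.44 (-3.87 with the transcript without reads in VBI-2 set at its bound). NtLAX3T had 138, 149 and 156 TPM in VBI-0 and 5.26, 3.32 and 6.86 TPM in VBI-2 (log2 fold change -4.89 ± 0.20, adjusted p = 2.04e-14). NtLAX1cT was low in VBI-0 already, at 0.35, 0.54 and 0.82 TPM, and had 0 reads in VBI-2, at least 10.9-fold lower (adjusted p = 5.20e-05). The LAX transcript that was not called, NtLAX2bT, had 9.17 to 10.5 TPM in VBI-0 and 8.23 to 8.98 TPM in VBI-2 (log2 fold change -0.25 ± 0.15, adjusted p = 0.167).

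ABCB transporters move auxin in either direction depending on the member. Of 17 tested out of 23, 3 were called higher and 3 lower, 17.6% each, near or below the 17.7% and 22.3% of all transcripts. Of the 17, 2 passed the filter on low values through VBI-2 alone, which favours a call as higher. NtABCB21T, the most abundant, had 94.2, 82.1 and 108 TPM in VBI-0 and 110, 94.8 and 125 TPM in VBI-2, and the lines overlapped (log2 fold change 0.04 ± 0.14, adjusted p = 0.813). NtABCB15S had 29.8, 24.7 and 30.5 TPM in VBI-0 and 2.43, 1.85 and 2.91 TPM in VBI-2 (log2 fold change -3.76 ± 0.14, adjusted p = 8.17e-15). NtABCB9aT (Nitab4.5_0000982g0090.1) had 0, 0.38 and 0.15 TPM in VBI-0, with 3 reads in all, and 4.38, 3.95 and 1.64 TPM in VBI-2, 19.9-fold higher (95% interval 6.49 to 99.1; adjusted p = 3.39e-05).

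The NRT1 list holds homologs of a nitrate transporter that also imports auxin in *Arabidopsis*. Of its 10 transcripts 7 passed the filter on low values, and 0 of these did so through VBI-0, whereas 5 did so through VBI-2 alone. A member that passed through VBI-2 alone could not have been called lower, so that the calls of the 7 as higher are no result about the list and its values are given as a description. The summed level of all 10 was 0.13 to 0.30 TPM in VBI-0 and 29.3 to 32.9 TPM in VBI-2. Nitab4.5_0006367g0020.1, the most abundant and the one with the highest log2 fold change, had 0, 0 and 0.04 TPM in VBI-0, where a single read was counted, and 10.9, 10.8 and 9.24 TPM in VBI-2. It was 738-fold higher (95% interval 132 to 29200; adjusted p = 5.48e-13).

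PILS proteins and short PIN proteins place auxin in the endoplasmic reticulum. Of 16 such transcripts tested out of 27, 5 (31.2%) were called higher and 1 (6.25%) lower, beside 17.7% and 22.3% of all transcripts, for a median log2 change of 0.76. Of the 16, 2 passed the filter on low values through VBI-2 alone, which favours a call as higher. The share called higher is therefore a description. NtPILS5aT, the most abundant, had 42.0, 33.9 and 50.2 TPM in VBI-0 and 54.5, 45.6 and 69.8 TPM in VBI-2. The lines overlapped, and its log2 fold change of 0.71 ± 0.16 (adjusted p = 6.44e-04) lay under the limit for a call. NtPILS6aS had 6.74, 5.08 and 7.07 TPM in VBI-0 and 1.73, 2.16 and 2.09 TPM in VBI-2 (log2 fold change -1.81 ± 0.23, adjusted p = 6.08e-07). NtPIN5S had 0 reads in VBI-0 and 0.86, 0.64 and 0.80 TPM in VBI-2, at least 5.87-fold higher (adjusted p = 0.00165).

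**Figure D3:**
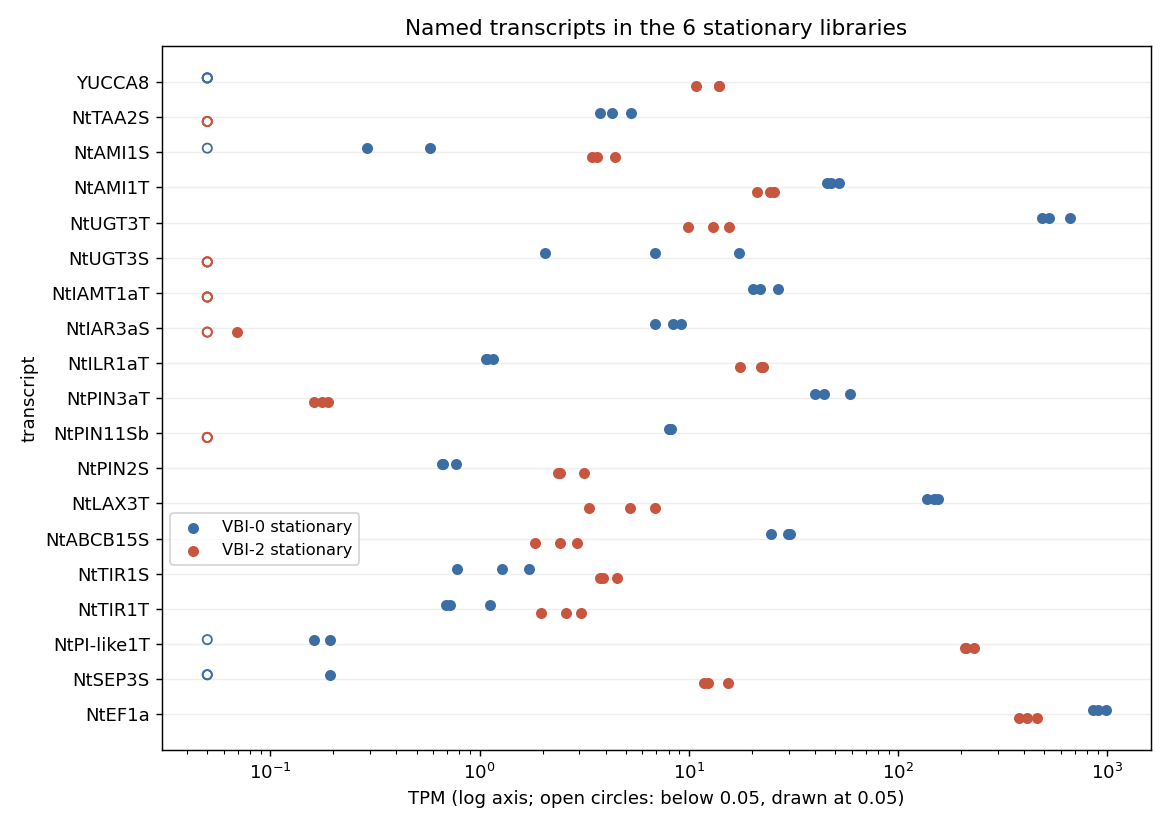
TPM (x axis, logarithmic) of 19 transcripts (y axis) in the 3 VBI-0 and 3 VBI-2 stationary libraries. Each point is a library and open circles at the left are values below 0.05 TPM; YUCCA8 and NtPI-like1T lie to the right in VBI-2, NtUGT3T (525, 488 and 661 TPM in VBI-0) and NtPIN3aT lie to the left, and the copies NtAMI1S and NtAMI1T move in opposite directions.

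Transcripts of auxin receptors changed little in comparison. Of 13 tested out of 14, 2 were called higher and 3 lower, 15.4% and 23.1%, close to the shares over all transcripts, and the median log2 fold change was 0.21. Both calls in the upward direction were the TIR1 copies. NtTIR1S had 1.71, 0.78 and 1.28 TPM in VBI-0 and 4.56, 3.75 and 3.89 TPM in VBI-2 (log2 fold change 1.55 ± 0.22, adjusted p = 3.13e-06). NtTIR1T had 0.72, 0.69 and 1.12 TPM in VBI-0 and 1.97, 3.05 and 2.60 TPM in VBI-2 (log2 fold change 1.50 ± 0.27, adjusted p = 7.07e-05). Neither overlapped, but both were minor receptor transcripts. The most abundant, Nitab4.5_0005161g0090.1, had 50.1, 52.8 and 52.3 TPM against 65.2, 63.9 and 58.1 TPM (log2 fold change 0.21 ± 0.09, adjusted p = 0.0475, not called). The summed level of the list was 149 to 157 TPM in VBI-0 and 154 to 167 TPM in VBI-2.

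The receptor transcript with the lowest log2 fold change, Nitab4.5_0000190g0020.1, had 24.7, 24.7 and 23.1 TPM in VBI-0 and 13.9, 13.2 and 13.7 TPM in VBI-2 (log2 fold change -1.03 ± 0.09, adjusted p = 3.11e-09). The receptors called lower lay close to a limit of the call. Without VBI-0 replicate 1 the count of 3 was 1, and without VBI-0 replicate 2 it was 0, where the log2 fold change of Nitab4.5_0000190g0020.1 was -0.99. Limma on log2(TPM + 0.5) also called 0 lower.

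AUX/IAA repressors were lower in VBI-2 almost throughout. Of 47 tested out of 50, 39 (83.0%) were called lower and 4 (8.51%) higher, beside 22.3% and 17.7% of all transcripts, for a median log2 change of -4.25 (-3.61 with transcripts without reads in a line at their bound). Their summed level was 4513, 4914 and 4485 TPM in VBI-0 and 486, 384 and 422 TPM in VBI-2. The most abundant, Nitab4.5_0000377g0200.1, had 831, 900 and 872 TPM in VBI-0 and 122, 113 and 131 TPM in VBI-2 (log2 fold change -2.93 ± 0.09, adjusted p = 2.06e-16). This transcript made up 18.3% to 19.4% of the summed AUX/IAA level in the VBI-0 libraries and 25.1% to 31.0% in the VBI-2 libraries.

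Others were lost altogether. Nitab4.5_0004887g0040.1 had 188, 241 and 200 TPM in VBI-0 and 0 reads in VBI-2, at least 1350-fold lower (adjusted p = 1.54e-16). Nitab4.5_0009114g0010.1 had 77.9, 89.2 and 67.8 TPM in VBI-0 and 0 reads in VBI-2, at least 247-fold lower (adjusted p = 2.82e-12). The AUX/IAA transcripts called higher were rare in both lines. Nitab4.5_0007553g0010.1 had 0.24, 0.16 and 0.26 TPM in VBI-0 and 8.44, 2.35 and 7.85 TPM in VBI-2 (log2 fold change 4.96 ± 0.71, adjusted p = 3.77e-06), and Nitab4.5_0001004g0020.1 had 0.40, 0.13 and 0.11 TPM against 2.31, 1.80 and 0.73 TPM (2.87 ± 0.64, adjusted p = 5.76e-04).

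ARF transcription factors were lower in part. Of 48 tested out of 49, 26 (54.2%) were called lower, 3 (6.25%) were called higher and 19 were not called, beside 22.3% and 17.7% of all transcripts called lower and higher, for a median log2 change of -1.40. Without VBI-0 replicate 3, 5 were called higher. NtARF5S, the most abundant, had 52.0, 50.0 and 50.3 TPM in VBI-0 and 47.3, 55.6 and 54.9 TPM in VBI-2, and the lines overlapped (log2 fold change -0.08 ± 0.08, adjusted p = 0.387). Nitab4.5_0008892g0020.1 had 25.6, 36.5 and 26.5 TPM in VBI-0 and 0 reads in VBI-2, at least 1800-fold lower (adjusted p = 3.28e-16). Nitab4.5_0012799g0010.1 had 2.03, 1.99 and 2.50 TPM and 0 reads, at least 106-fold lower (adjusted p = 1.25e-10).

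In the other direction, Nitab4.5_0006740g0010.1 had 1.73, 1.77 and 1.35 TPM in VBI-0 and 13.3, 16.1 and 15.7 TPM in VBI-2 (log2 fold change 3.06 ± 0.14, adjusted p = 9.11e-14). Nitab4.5_0000304g0070.1 had 1.18, 1.47 and 1.42 TPM against 7.12, 5.42 and 4.14 TPM (1.88 ± 0.18, adjusted p = 1.37e-08). The summed ARF level was 450 to 475 TPM in VBI-0 and 226 to 248 TPM in VBI-2.

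SAUR-like transcripts, from a family of small proteins that promote cell expansion, were low in both lines. Of 26 tested out of 38, 1 was called higher and 4 lower, 3.85% and 15.4%, both below the shares over all transcripts. Without VBI-0 replicate 3 these counts were 2 and 1, and without VBI-2 replicate 3 the count called lower was 2. Of the 26, 3 passed the filter on low values through VBI-2 alone, which favours a call as higher. Nitab4.5_0004059g0020.1, the most abundant, had 12.2, 16.4 and 9.95 TPM in VBI-0 and 14.3, 10.7 and 9.27 TPM in VBI-2, with overlap (log2 fold change -0.21 ± 0.27, adjusted p = 0.520). Nitab4.5_0007886g0020.1 had 2.54, 3.92 and 4.93 TPM against 0.23, 0.44 and 0 TPM (-4.03 ± 0.67, adjusted p = 2.46e-05), and Nitab4.5_0000227g0080.1 had 1.34, 1.51 and 2.01 TPM against 4.39, 6.76 and 4.78 TPM (1.68 ± 0.38, adjusted p = 6.35e-04).

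A further 674 homologs of auxin-related genes outside these classes served as a wider background. Of 582 tested, 126 (21.6%) were called higher and 147 (25.3%) lower, near the shares over all transcripts, for a median log2 change of -0.04.

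Floral MADS-domain transcription factors, which in flowers specify petals, stamens and carpels, were present in VBI-2 and at or near 0 in VBI-0. The study had picked them, and 44 other factors, from these same libraries for being low in the dependent lines and present in VBI-2, so that their values are a description and their direction is not independent evidence. NtPI-like1T, a PISTILLATA homolog, had 0.16, 0 and 0.19 TPM in VBI-0 and 230, 208 and 210 TPM in VBI-2. The NtAP3-likeT transcripts, APETALA3 homologs whose products pair with PISTILLATA in *Arabidopsis*, had 0 reads in VBI-0 and 76.3, 72.6 and 85.6 TPM (Nitab4.5_0002266g0050.1) and 76.1, 81.7 and 85.8 TPM (Nitab4.5_0002266g0060.1) in VBI-2. PISTILLATA and APETALA3 homologs thus stood far above the other MADS transcripts of the list.

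NtAG-likeS, an AGAMOUS homolog, had 0 reads in VBI-0 and 19.2, 14.5 and 9.94 TPM in VBI-2. NtSEP1-likeS had 0, 0.20 and 0 TPM against 8.00, 14.4 and 14.9 TPM, and NtSEP3S had 0, 0.19 and 0 TPM against 12.4, 11.8 and 15.4 TPM. SEPALLATA proteins join the other floral MADS proteins in complexes. Of the 44 other factors, 25 had 0 reads in VBI-0 and at least 1 TPM in each VBI-2 library. Among them the bHLH30-like transcript Nitab4.5_0000414g0040.1 was the most abundant, with 16.9, 18.3 and 16.3 TPM in VBI-2, and the C2H2-like transcript Nitab4.5_0004543g0030.1 had the highest log2 fold change, with 9.82, 15.9 and 13.2 TPM.

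The Polycomb repressive complex PRC2 deposits a repressive histone mark, and in *Arabidopsis* its subunit EMF2 holds floral genes silent. Of 18 PRC2 transcripts, all tested, 5 (27.8%) were called lower and 1 higher (5.56%), beside 22.3% and 17.7% of all transcripts, so that the share called lower lay near that of all transcripts, for a median log2 change of -0.37. EMF2-like transcripts made up 3 of the 5 called lower. The study had already singled out EMF2 for its lower level in VBI-2 in these data. The direction of these transcripts is therefore not independent evidence. Nitab4.5_0007599g0010.1 had 15.7, 16.1 and 18.4 TPM in VBI-0 and 0 reads in VBI-2, at least 625-fold lower (adjusted p = 1.40e-15). Nitab4.5_0000600g0150.1 had 18.6, 17.5 and 18.9 TPM in VBI-0 and 4.09, 2.88 and 2.57 TPM in VBI-2 (log2 fold change -2.71 ± 0.14, adjusted p = 1.29e-12).

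The EMF2-like transcript Nitab4.5_0001472g0030.1 had 6.65, 6.16 and 6.66 TPM against 1.62, 1.49 and 1.49 TPM (-2.22 ± 0.16, adjusted p = 1.07e-10). The remaining EMF2-like transcript, Nitab4.5_0002153g0020.1, had 9.21, 6.77 and 8.61 TPM against 6.14, 7.71 and 7.12 TPM, overlapped between the lines and was not called (-0.39 ± 0.15, adjusted p = 0.0268). EMF2-like transcripts summed to 46.5 to 52.6 TPM in VBI-0 and 11.2 to 12.1 TPM in VBI-2. Among the other PRC2 components, the most abundant, Nitab4.5_0003914g0030.1, had 39.9, 39.8 and 45.7 TPM against 53.4, 50.7 and 51.3 TPM (0.23 ± 0.09, adjusted p = 0.0263, not called). Nitab4.5_0009192g0020.1 had 0.49, 1.17 and 1.09 TPM against 6.19, 3.66 and 5.75 TPM (2.44 ± 0.34, adjusted p = 2.79e-06).

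Of 6 homologs of the cell cycle regulators E2Fb and SKP2 tested, edgeR called 0 in either direction. Over all transcripts, 17.7% were called higher and 22.3% lower. At an unadjusted p under 0.05 in that test, 4 of the 6 were higher and 1 lower. Over all 48440 transcripts tested, 15137 were higher and 16301 lower at that limit. DESeq2 also called 0, and limma on log2(TPM + 0.5) called 0. Without VBI-0 replicate 2, 1 was called higher. The most abundant, Nitab4.5_0000174g0050.1, had 43.3, 49.5 and 44.5 TPM in VBI-0 and 60.0, 58.9 and 68.5 TPM in VBI-2 (log2 fold change 0.29 ± 0.10, adjusted p = 0.0156).

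Of the transcripts that the study used as references in RT-qPCR, the aminopeptidase-like transcript had 50.9, 53.5 and 52.5 TPM in VBI-0 and 68.4, 78.2 and 77.8 TPM in VBI-2 (log2 fold change 0.34 ± 0.08, adjusted p = 7.37e-04, not called). NtEF1a, a translation elongation factor, had 904, 858 and 981 TPM in VBI-0 and 415, 380 and 460 TPM in VBI-2. It was called lower, with a log2 fold change of -1.26 ± 0.08 (adjusted p = 2.89e-11).

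Outside all lists, the largest gain of TPM was that of Nitab4.5_0002070g0010.1, from 101, 126 and 105 TPM to 5158, 6064 and 5182 TPM (log2 fold change 5.60 ± 0.25, adjusted p = 8.80e-14). It was followed by Nitab4.5_0003074g0030.1, from 1044, 1085 and 1017 TPM to 6868, 5750 and 6372 TPM (2.56 ± 0.10, adjusted p = 1.30e-14). The largest losses were those of Nitab4.5_0004136g0010.1, from 14530, 13720 and 14210 TPM to 4359, 3663 and 3653 TPM (-1.90 ± 0.18, adjusted p = 7.80e-09), and of Nitab4.5_0001477g0050.1, from 2398, 2249 and 2519 TPM to 0, 0.95 and 0 TPM (-12.54 ± 0.42, adjusted p = 1.47e-15). These 4 transcripts are 550, 213, 231 and 453 bases long. Their IDs carry no gene name in the tables used here.

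Tobacco carries an S and a T copy of most genes, and the listed names gave 38 pairs with 1 transcript for each copy, of which 28 had both copies tested. Both copies were called lower in 11 pairs and higher in 1 pair, which was NtTIR1. Neither was called in 5 pairs, 1 copy alone was called in 10 pairs, and NtAMI1 was the pair called in opposite directions. Of single transcripts over all tested, 22.3% were called lower and 17.7% higher. Apart from NtABCB15, the pairs with both copies called lower came from the inactivation, LAX and PIN lists. Their count therefore largely repeats the counts of those lists. Reads that fit both copies are shared between them by the quantification, so that values of single copies are less certain than their sum.

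In some pairs with a single copy called, the other copy lay near its level in VBI-0. NtDAO1T, an IAA oxidase, had 310, 301 and 273 TPM in VBI-0 and 18.8, 14.4 and 22.9 TPM in VBI-2 (log2 fold change -3.83 ± 0.24, adjusted p = 2.00e-11), whereas NtDAO1S had 24.6, 28.8 and 21.6 TPM against 20.8, 16.0 and 16.5 TPM (-0.35 ± 0.17, adjusted p = 0.0781). The S copy thus made up a small part of the DAO1 level in VBI-0 and about as much as the T copy in VBI-2, with means of 17.8 TPM and 18.7 TPM. In the hydrolase NtIAR3a the S copy was lost and the T copy was not called, with means of 4.48 TPM in VBI-0 and 6.09 TPM in VBI-2 (0.36 ± 0.18, adjusted p = 0.0903). In NtIAR3b it was the T copy that fell, from a mean of 17.7 TPM to 1.18 TPM (-3.98 ± 0.20, adjusted p = 8.36e-13). Among the conjugating enzymes, NtGH3.1aT had 62.0, 59.5 and 64.2 TPM in VBI-0 and 0.15, 0.16 and 0.15 TPM in VBI-2 (-8.85 ± 0.27, adjusted p = 3.73e-16), and its S copy fell as well, from a mean of 11.4 TPM to 0.70 TPM (-4.24 ± 0.30, adjusted p = 1.29e-10). These pairs were picked after their values had been seen.

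**Figure D4:**
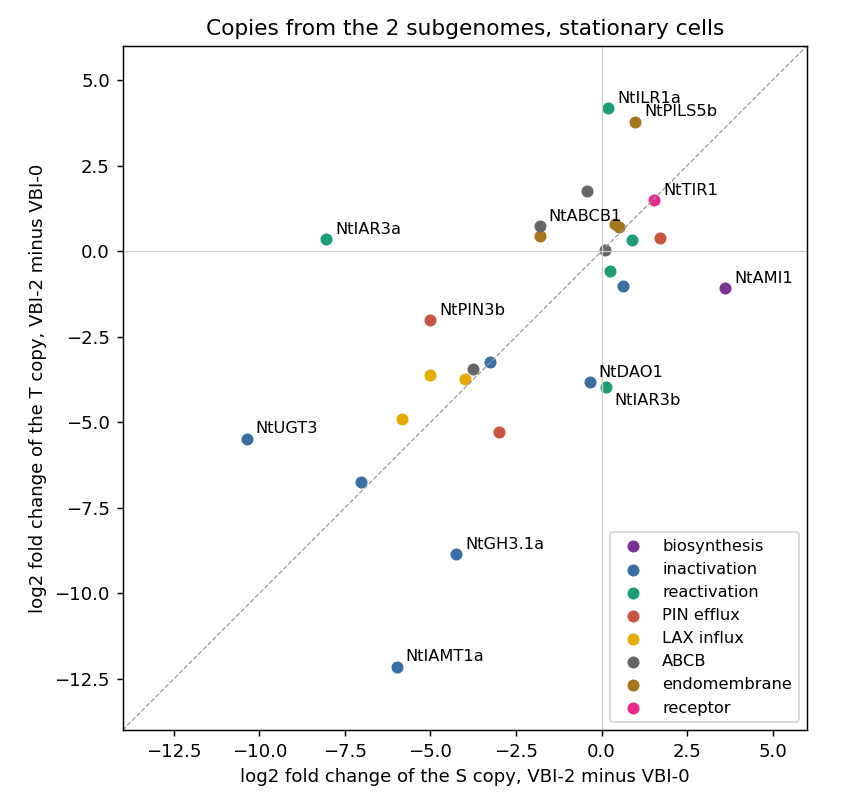
Log2 fold change (VBI-2 minus VBI-0, stationary cells) of the S copy (x axis) and of the T copy (y axis) for the 28 pairs with both copies tested, coloured by list. The dashed line marks equal change. Fitted values of copies with 0 reads in a line, such as NtUGT3S and NtIAMT1aT, depend on the prior count. The 11 pairs with both copies called lower lie at the lower left. Of these, NtIAMT1a, NtUGT3 and NtGH3.1a are among those far from the dashed line. Other pairs far from it include NtAMI1 (3.62 and -1.08), NtIAR3a (-8.05 and 0.36), NtIAR3b, NtDAO1 and NtILR1a.

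The line effect in stationary cells was compared with that in exponential cells, 3 d old, of the same lines by a test of the difference in the same fit. Over all transcripts, 6.82% differed at an adjusted p of at most 0.05. Of 63 named transcripts tested, 9 did. Part of the named transcripts had been chosen by their change in stationary cells, so this count is not comparable with the share over all transcripts. NtLAX3T was lower by 4.89 in stationary cells and by 2.92 in exponential cells on the log2 scale, and the difference was -1.97 ± 0.26 (adjusted p = 8.29e-05). The most abundant AUX/IAA transcript, Nitab4.5_0000377g0200.1, had log2 fold changes of -2.93 and -2.14 (difference -0.79, adjusted p = 2.34e-04). The receptor transcript Nitab4.5_0000190g0020.1 had -1.03 and -0.23 (difference -0.81, adjusted p = 5.70e-04), so that it was called lower in stationary cells, and in exponential cells its change lay under the fold limit.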

How the data were processed

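RNA-seq of 12 VBI libraries (VBI-0 and VBI-2, exponential and stationary, 3 each) was used. The authors trimmed the reads and quantified them against the tobacco cDNA set whose IDs begin with Nitab4.5; the labels name Trimmomatic and Salmon 1.3.0. The deposited tables hold estimated counts of reads, TPM and effective lengths per transcript, without scaling between libraries. Transcript lists came from the annotation columns of the study's tables. The members and lists were chosen with earlier results of these data known.

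Estimated counts were rounded, scaled by TMM and fitted with edgeR 4.0.16 in R 4.3.3 (quasi-likelihood test, 4 groups, Benjamini-Hochberg over all 48440 transcripts tested), over transcripts with reads in the fit whose mean TPM exceeded 0.5 in any of the 7 groups of the series. The SE is the absolute log2 fold change over the square root of F. The test was checked on simulated counts. Lists are described by counts and medians without a test of the list.

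Named transcripts were those the study names and its tables identify; per list, the called transcripts without overlap that had the highest and lowest log2 fold change (2 each in AUX/IAA, ARF and inactivation) and the most abundant; copies called in opposite directions; and, outside the lists, 2 with the largest gain and 2 with the largest loss of TPM. Alternatives were median-of-ratios scaling, DESeq2 1.42.0, no filter, filterByExpr, limma 3.58.1 on log2(TPM + 0.5) and log2(TPM + 1), an effective length offset, 6 stationary libraries alone, the replicate number as a block, and leaving out each stationary library. Replicate pairs differed by 3.90 to 8.22 times the variance of read sampling, so no library was counted as a second sequencing of another. These values do not tell whether libraries came from the same culture. Sequences were not used here.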

Additional observations from a re-analysis of the deposited data

Results flagged for a closer look

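In 9 of the 63 named transcripts tested, the line effect differed between stationary and exponential cells (adjusted p of at most 0.05 for the difference of log2 fold changes, stationary minus exponential). The difference was -1.97 for NtLAX3T, -0.89 for NtABCB15S, -0.79 for the AUX/IAA transcript Nitab4.5_0000377g0200.1 and -0.81 for the receptor transcript Nitab4.5_0000190g0020.1, each of which was lower in VBI-2 by more in stationary cells. It was -1.62 for the NtTAA1T transcript Nitab4.5_0002255g0070.1 (adjusted p = 0.015), which had a log2 fold change of 2.20 in exponential cells and 0.58 in stationary cells. It was 0.74 for NtPILS5aT (adjusted p = 0.0482), with 0.71 in stationary and -0.03 in exponential cells. Outside the lists it was 1.11 for Nitab4.5_0002070g0010.1, 0.84 for Nitab4.5_0003074g0030.1 and 0.86 for Nitab4.5_0004136g0010.1. These transcripts, NtABCB15S and Nitab4.5_0000190g0020.1 had been named for their change in stationary cells. The direction of their differences is therefore not independent evidence.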

How the results depend on the processing

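Over all transcripts, the counts of calls stayed within 1.5 times their values under every alternative run; without 1 stationary library, 8187 to 8508 were called higher and 10361 to 10475 lower. No named transcript changed direction with a call. On log2(TPM + 1) in limma, the endomembrane transcripts called higher numbered 3 and the receptors called higher 1. On log2(TPM + 0.5) and log2(TPM + 1), 3 PRC2 transcripts and 0 receptors were called lower, and on log2(TPM + 0.5) the line effect differed between phases in 5 named transcripts. Without 1 library, 3 to 5 ARF transcripts, 0 to 1 cell cycle transcript and 1 to 2 SAUR-like transcripts were called higher, and 1 to 4 SAUR-like transcripts and 0 to 3 receptors lower. The causes were not tested. A pseudocount shrinks the fold changes of low transcripts by construction. The receptor transcript Nitab4.5_0000190g0020.1 was not low, with means of 24.2 TPM in VBI-0 and 13.6 TPM in VBI-2. Its log2 fold change was -0.81 on log2(TPM + 0.5) and -0.88 with the effective length offset. Of all alternatives for named transcripts, 934 kept the status of called or not called, 8 lost a call and 1 gained a call. The losses were those of NtPIN5S, NtLAX1cT and NtTIR1T on log2(TPM + 1), and 5 of Nitab4.5_0000190g0020.1.

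The correlations of deviations from the group means of same-numbered stationary libraries were -0.03, 0.13 and 0.17. Those of libraries with different numbers were -0.168 to 0.037. With 3 libraries per line, these values do not settle whether the replicate numbers pair the libraries. With the replicate block, 8349 transcripts were called higher and 10546 lower.

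Depth limits transcripts with few reads, such as NtYUCCA3S and NtTAA1S.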
